A study of Mus musculus with 3 samples.

Results

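The cells described here are luminal duct-like cells of mouse salivary gland organoids, chosen by how much of their RNA came from 6 genes: Wfdc2, Cldn4, Cldn3, Ltf, Hp and Cst6. In each of 3 single-cell libraries, cell barcodes with at least 2000 UMIs (unique molecular identifiers, which count captured RNA molecules), at least 500 detected genes and at most 20% mitochondrial UMIs were kept, which left 28450 of 44717 deposited barcodes. The 10% of these pooled cells with the highest summed share of UMIs in the 6 genes were taken, which gave 2845 marker-high cells (the chosen cells of the plots) and 25605 other cells. The measured values of the 6 genes chose the cells, so their levels in the marker-high cells are a description and were not tested. The cut fell at 1.27% of a cell's UMIs, and 1160 cells lay within 10% of it, 505 of them inside and 655 outside. The 3 cells just inside the cut had a share of 1.2745% and the 3 just outside had shares from 1.2735% to 1.2744%. A cut of this kind takes a range of a gradient and does not mark off a cell type.

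All 3 libraries came from submandibular gland organoids of C57BL/6 mice aged 8 to 12 weeks, with 4 animals as the source, and the labels do not say which cells came from which animal. The organoids grew in Matrigel in a medium that every group shared, with the ROCK inhibitor Y27632, dexamethasone (a synthetic glucocorticoid), insulin, FGF2, EGF and media conditioned by cells making R-spondin1 or Wnt3a. The control organoids were not irradiated, and the others were given a dose of 7 Gy on day 5, either as photons or as protons (the plateau region). All were collected on day 11, 6 days after irradiation, and from each group 45000 cells that excluded propidium iodide were sorted into 10x Genomics 3' library preparation. Each group was 1 library, so no difference between libraries has a replicate check, no p-value was computed, and treatment and library cannot be told apart. The 95% intervals below cover counting error only.

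Ducts carry saliva from the acini, where it is made, to the mouth. Their luminal cells face the lumen, are sealed to each other by tight junctions, take salt back from the fluid and add antimicrobial proteins to it. They rest on basal duct cells, which carry keratins 5 and 14 and the transcription factor p63 and can give rise to luminal cells. Among the 6 genes, Wfdc2 encodes a secreted protein of the whey acidic protein family, Ltf encodes lactoferrin (an iron-binding antimicrobial protein), Hp encodes haptoglobin (a haemoglobin-binding acute phase protein), Cst6 encodes cystatin E/M (an inhibitor of cysteine proteases), and Cldn3 and Cldn4 encode claudins of the tight junction.

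Promoters are shown of Wfdc2, which gave most UMIs of the choice, of Ltf and Cldn4, a secreted protein and a claudin of the rule, and of Lcn2, the most abundant luminal gene named outside the rule. Each is the 250 bases upstream of the RefSeq start site (GRCm38.p6, 1 promoter per gene, written 5′ to 3′ along the gene). Capitals mark the C/EBP core TTGCNNAA in Ltf and Lcn2 and the AP-1 core TGANTCA in Cldn4; N is any base, and both strands were searched. Wfdc2 lies at chr2:164562465-164562714 on the plus strand, Ltf at chr9:111019042-111019291 on the plus strand, Lcn2 at chr2:32387740-32387989 on the minus strand and Cldn4 at chr5:134946935-134947184 on the minus strand.
Wfdc2: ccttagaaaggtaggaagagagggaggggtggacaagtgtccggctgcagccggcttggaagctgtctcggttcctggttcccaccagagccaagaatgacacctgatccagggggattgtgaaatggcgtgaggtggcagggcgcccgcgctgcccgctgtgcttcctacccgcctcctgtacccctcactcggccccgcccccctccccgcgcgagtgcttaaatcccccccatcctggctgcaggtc
Ltf: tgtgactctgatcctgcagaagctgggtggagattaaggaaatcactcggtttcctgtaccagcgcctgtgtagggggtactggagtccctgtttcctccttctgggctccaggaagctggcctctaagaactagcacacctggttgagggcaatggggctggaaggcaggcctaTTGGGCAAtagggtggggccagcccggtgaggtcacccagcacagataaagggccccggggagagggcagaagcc
Lcn2: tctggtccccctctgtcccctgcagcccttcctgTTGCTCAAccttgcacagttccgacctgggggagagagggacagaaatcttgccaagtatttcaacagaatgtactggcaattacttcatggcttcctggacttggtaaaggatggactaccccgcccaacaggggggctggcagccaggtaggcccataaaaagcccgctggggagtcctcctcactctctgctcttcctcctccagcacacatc
Cldn4: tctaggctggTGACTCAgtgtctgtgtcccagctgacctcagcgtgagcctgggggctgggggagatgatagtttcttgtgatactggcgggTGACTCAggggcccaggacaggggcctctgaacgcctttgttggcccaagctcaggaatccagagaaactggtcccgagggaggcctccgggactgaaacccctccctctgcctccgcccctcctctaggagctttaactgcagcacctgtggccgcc
The C/EBP core began 75 bases before the start in Ltf and 216 bases before it in Lcn2, and the AP-1 core stood at 240 and 158 bases before it in Cldn4. The C/EBP core was found in 9.55% of the 27025 promoters searched, in 1 of the 4 rule genes with an entry and in 2 of the 9 entries among the 12 genes with the highest ratio of marker-high to other cells. The AP-1 core was found in 6.87% of all promoters, in 1 of those 4 and in 1 of those 9. A match describes the letters of this window only.

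Interferon-responsive genes separated both irradiated libraries from the control in the marker-high cells (values below), so 160 bases upstream of 4 of them are shown, with matches to the core of the interferon response element in capitals. The core searched was GAAA, any 2 bases and GAAA again, on both strands, so that a match on the opposite strand reads TTTC, 2 bases and TTTC, and overlapping matches run together. The windows are chr4:156200819-156200978 (minus strand) for Isg15, chr19:34583369-34583528 (plus) for Ifit3, chr19:34640729-34640888 (plus) for Ifit1 and chr12:26456453-26456612 (minus) for Rsad2.
Isg15: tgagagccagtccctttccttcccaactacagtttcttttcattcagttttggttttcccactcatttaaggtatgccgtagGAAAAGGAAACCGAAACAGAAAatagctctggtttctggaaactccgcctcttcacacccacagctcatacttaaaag
Ifit3: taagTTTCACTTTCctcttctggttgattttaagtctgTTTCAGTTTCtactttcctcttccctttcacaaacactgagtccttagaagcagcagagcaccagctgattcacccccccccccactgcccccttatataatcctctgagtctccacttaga
Ifit1: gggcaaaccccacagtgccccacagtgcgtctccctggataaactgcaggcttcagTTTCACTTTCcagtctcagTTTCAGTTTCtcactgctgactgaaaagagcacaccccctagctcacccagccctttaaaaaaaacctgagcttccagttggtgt
Rsad2: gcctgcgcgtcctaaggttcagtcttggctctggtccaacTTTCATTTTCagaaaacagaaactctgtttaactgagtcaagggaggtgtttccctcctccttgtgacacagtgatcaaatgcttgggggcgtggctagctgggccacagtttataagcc
In the 250-base windows this core was found in 3.04% of all 27025 promoters, in 15 of the 28 entries of the interferon list (53.6%) and in 8 of the 9 entries among the 12 genes with the highest photon to control ratio in marker-high cells. It was found in none of the 4 rule genes with an entry and in none of the 9 genes highest in marker-high over other cells.

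The choice rested mainly on Wfdc2. Wfdc2 gave 92.6% of the 6 genes' UMIs in the control and photon marker-high cells and 94.0% in the proton ones, and it was the leading gene of the 6 in 2837 of 2845 cells. The gene (chr2:164562413-164568510, plus strand, GRCm38, GENCODE release 21) stood at 18439, 19776 and 20801 CPM (counts scaled to 1000000 UMIs per library and cell set) in the control, photon and proton libraries' marker-high cells. In the other cells it stood at 4849.9, 4633 and 4129 CPM. It was not restricted to the marker-high cells: with each cell thinned to 2000 UMIs, 98.7% of other control cells, 97.2% of other photon cells and 96.0% of other proton cells still held a Wfdc2 UMI. No set of cells outside the epithelium was at hand to gauge a background of free RNA. Ranking the cells by Wfdc2 alone gave 2684 of the same 2845 cells (94.3%), and ranking them by the 5 genes without it gave 1240 (43.6%). Cells chosen on Wfdc2 alone still held more of the genes not used: Ltf stood 14.8, 8.41 and 7.5 times its level in the remaining control, photon and proton cells, Hp 7.02, 5.37 and 6.51 times, Cst6 3.69, 3.09 and 3.77 times, Cldn3 2.39, 2.31 and 2.82 times, and Cldn4 1.58, 2.42 and 2.22 times. In the reverse case, cells chosen on the 5 genes held 2.01, 2.27 and 2.61 times the Wfdc2 of the remaining cells. These ratios compare genes counted in the same cells and were not tested.

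The secreted proteins Ltf and Hp showed the widest gap between marker-high and other cells, and the claudins the narrowest. In the order control, photon, proton, Ltf (chr9:111019271-111042767) reached 509.6, 512 and 300.1 CPM in marker-high cells, against 21.1, 39.7 and 37.6 CPM in the other cells. Hp (chr8:109575128-109579172) stood at 407, 331 and 199 CPM, against 41.2, 43.0 and 25.9 CPM. Cldn4 (chr5:134945119-134946934) stood at 322, 302 and 256 CPM, against 179, 111 and 107 CPM. Its neighbour Cldn3 (chr5:134986214-134987472) stood at 110.4, 110.4 and 82.0 CPM, against 38.5, 39.9 and 24.9 CPM. Cst6 (chr19:5344705-5349574) differed from the rest by library: 115 CPM in the control's marker-high cells, 329 CPM in those of photon and 488 CPM in those of proton, against 23.9, 85.3 and 99.7 CPM in the other cells. Most marker-high cells held only a few of these genes at once: at 2000 UMIs per cell, Ltf was seen in 18.8% of control, 29.1% of photon and 24.0% of proton marker-high cells, against 1.19%, 4.29% and 4.05% of other cells.

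**Figure D1:**
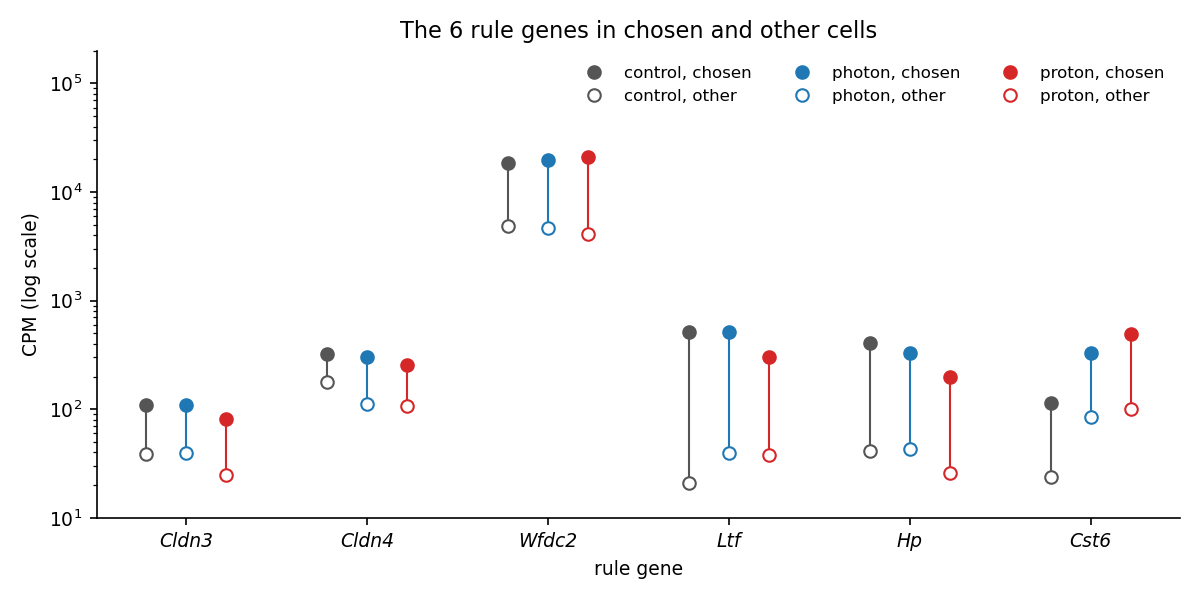
Level of each of the 6 rule genes in CPM (log axis) by library; filled points are marker-high cells, open points other cells, and each point is the sum over 1 library. The 3 libraries lie close together for Wfdc2 (18439 to 20801 CPM in marker-high cells), while Cst6 runs from 115 CPM in control to 488 CPM in proton.

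The label fits the marker-high cells unevenly: luminal and basal gene levels differed with how many of the 5 genes beside Wfdc2 a cell held. These 5 genes took part in the choice, so the split is a description and not a test. Wfdc2 rose along it too, in control from 16711.5 CPM with none of the 5 to 20424 CPM with 2 or more. At 2000 UMIs per cell, 750 marker-high cells (26.4%) held none of the 5, 905 held 1, 1190 (41.8%) held 2 or more and 432 (15.2%) held 3 or more; of the other cells, 66.5% held none, 7.13% held 2 or more and 1.36% held 3 or more. Lcn2, which encodes lipocalin 2 (a secreted protein that binds iron-carrying bacterial siderophores) and was not used in the choice, stood at 3777 CPM in control marker-high cells with none of the 5, at 7148 CPM in those with 1 and at 12683 CPM in those with 2 or more. The photon values in the same order were 2461, 4268 and 7102 CPM, and the proton values 3895, 4506 and 6566 CPM. The luminal keratin gene Krt18 went the same way, from 1222 to 2512 CPM in control, from 1494 to 3114 CPM in photon and from 945 to 1734 CPM in proton cells. The basal keratin gene Krt14 went the other way, from 1284 to 261 CPM in control, from 1768 to 509 CPM in photon and from 524 to 206 CPM in proton cells. Control marker-high cells with none of the 5 held 6860 CPM of the summed basal list, against 6846 CPM in all other control cells. Set against other cells with none of the 5, their Krt14 was lower (1852, 2734 and 1074 CPM in those other cells). Their Krt5 was not lower in control and photon (1265 and 1280 against 1041 and 1260 CPM) but was in proton (734 against 935 CPM). Marker-high cells with 2 or more of the 5 had the lowest Krt14 and Krt5 of the groups set apart here, in all 3 libraries. Krt15 did not follow this in proton, at 257 CPM in them, 243 CPM in other cells with none and 196 CPM in other cells with 2 or more. Marker-high cells with 2 or more were also the deeper ones in the control, with a median of 4490 UMIs against 3629 in cells with none of the 5, while in photon the medians were 3236 and 3144 and in proton 3220 and 2979. Other cells with 2 or more of the 5 genes held 5256, 2934 and 2604 CPM of Lcn2, more than the marker-high cells with none of the 5 in control and photon but less in proton. Their Krt8 stood at 429, 912 and 886 CPM, against 562, 899 and 734 CPM in marker-high cells with 2 or more. Krt19 did not follow the number held in photon (150, 173 and 164 CPM) or proton (74.5, 100 and 74.1 CPM) marker-high cells.

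**Figure D2:**
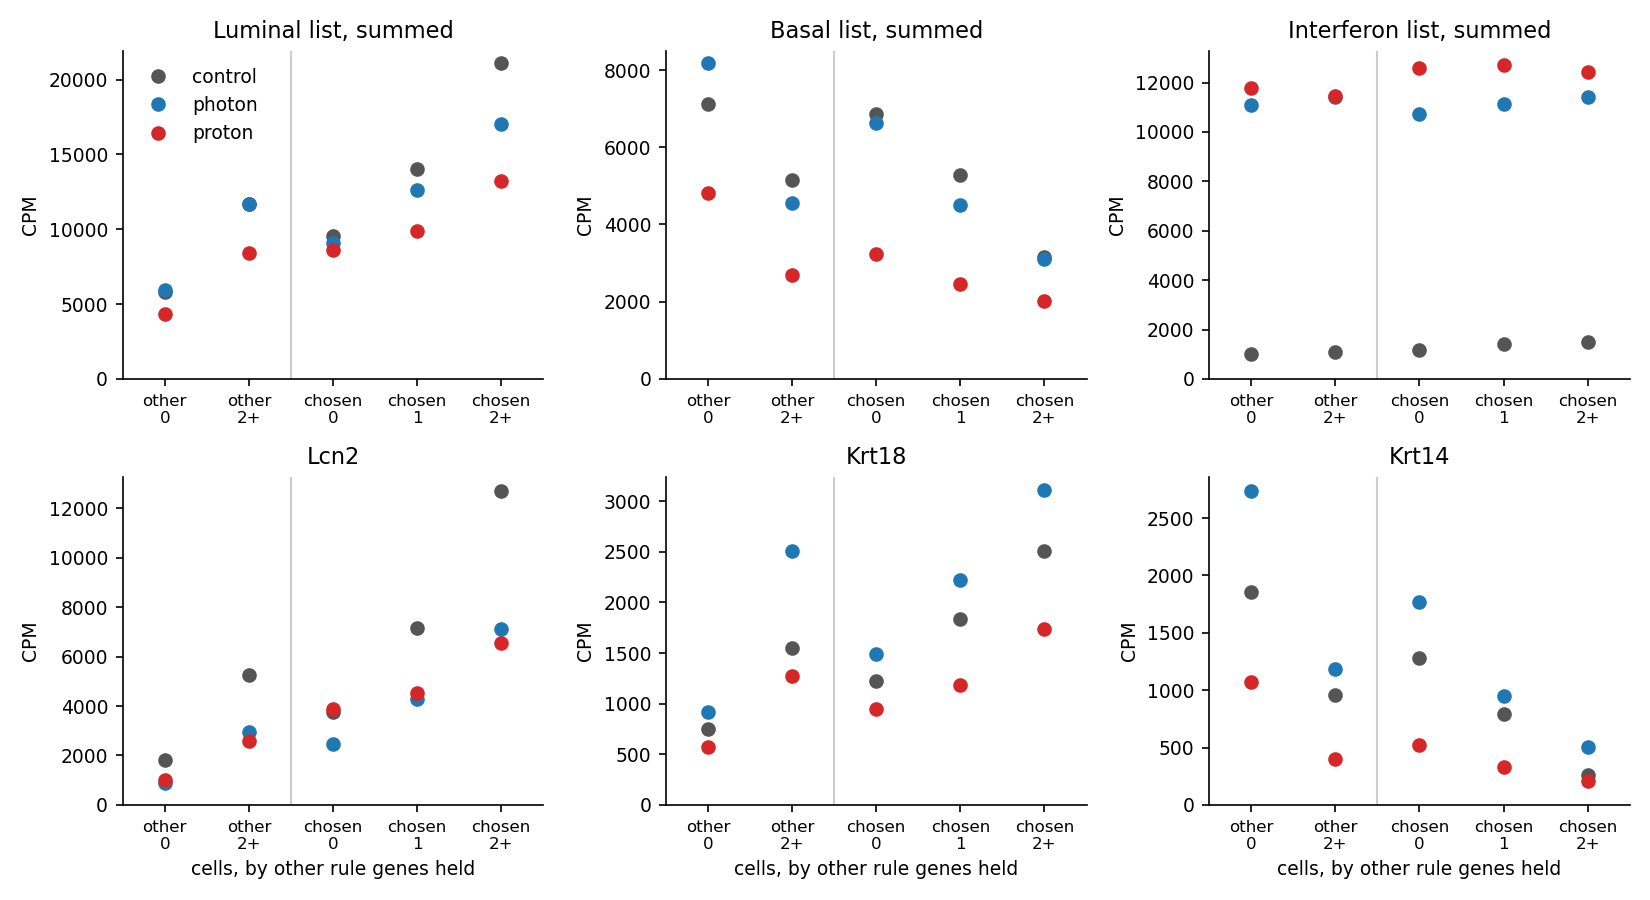
Levels (CPM, linear axis from 0) of luminal and basal genes and of the summed lists in marker-high and other cells, divided by how many of the 5 rule genes beside Wfdc2 a cell held at 2000 UMIs; each point is 1 library. From left to right within the marker-high cells Lcn2 goes up (3777 to 12683 CPM in control) and Krt14 goes down (1284 to 261 CPM in control).

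Marker-high cells made up a larger share of both irradiated libraries than of the control. They were 579 of 9620 pooled control cells (6.02%, exact Clopper-Pearson interval 5.55 to 6.51), 1362 of 10891 photon cells (12.5%, 11.9 to 13.1) and 904 of 7939 proton cells (11.4%, 10.7 to 12.1). The photon share was 2.08 times (1.89 to 2.28) and the proton share 1.89 times (1.71 to 2.09) the control share, and the proton share was 0.911 times (0.841 to 0.985) the photon share. The choice of genes mattered for these ratios: without Wfdc2 and Cst6 the photon ratio was 1.36 and the proton ratio 0.983.

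The difference in share lay in cells of low depth. Among cells with at least 2000 and under 3000 UMIs, 2.65% of control cells (107 of 4042, interval 2.17 to 3.19) were marker-high, against 14.2% of photon cells (587 of 4127, 13.2 to 15.3) and 11.5% of proton cells (419 of 3634, 10.5 to 12.6). Among cells from 3000 to under 4000 UMIs the shares were 6.15%, 12.6% and 11.7%. From 4000 to under 5000 UMIs they were 10.1%, 10.4% and 11.0%, and the intervals of the 3 libraries overlapped. At 5000 UMIs or more the order was different: 11.5% of control cells (167 of 1448, 9.93 to 13.3), 10.6% of photon cells (191 of 1800, 9.23 to 12.1) and 10.8% of proton cells (125 of 1161, 9.04 to 12.7), again with overlapping intervals. The share thus went up with depth in the control, went down in photon and stayed between 9.66% and 11.7% in proton. Marker-high control cells had a median of 4059 UMIs, against 3165 in other control cells, while marker-high photon and proton cells had medians of 3186.5 and 3114.5, against 3410 and 3118. Ranking by Wfdc2 alone gave the same picture, with 3.02% of control, 14.2% of photon and 11.6% of proton cells under 3000 UMIs. The part of depth in the difference between libraries was not tested.

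**Figure D3:**
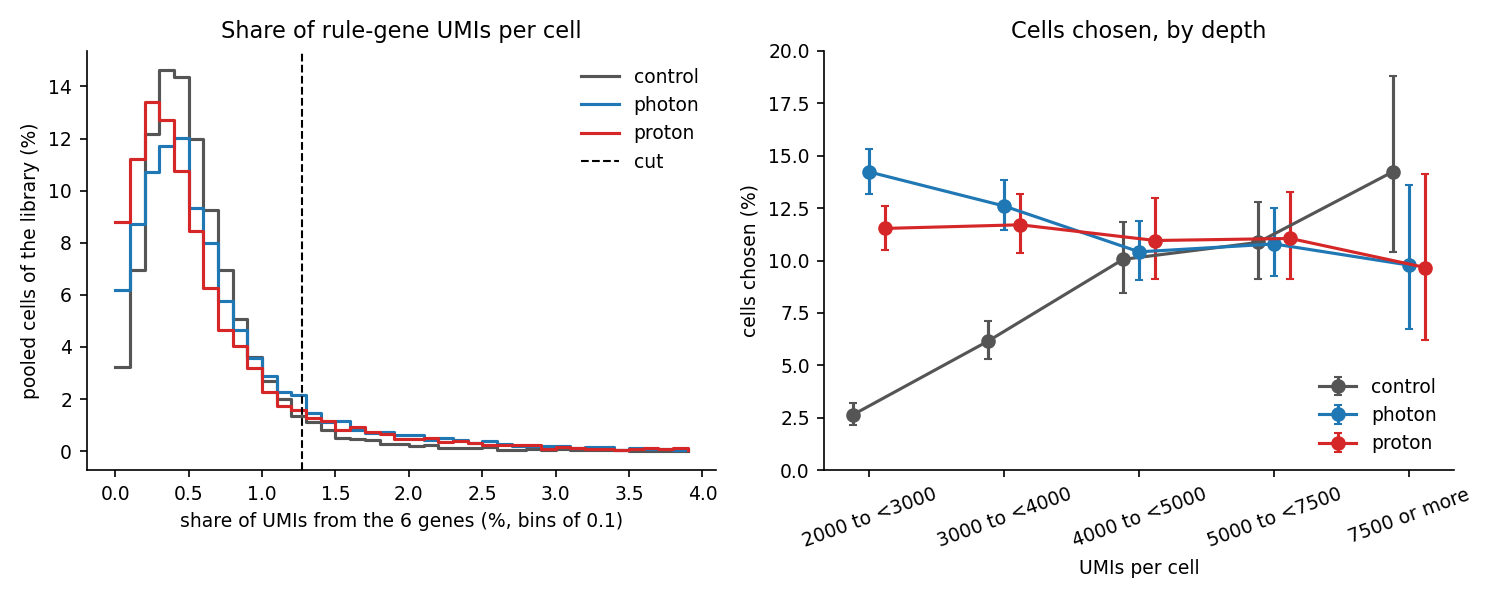
Left, percent of each library's pooled cells by the share of UMIs from the 6 genes (percent, bins of 0.1), with the cut dashed; right, percent of cells chosen by UMIs per cell, with 95% exact intervals. The libraries lie apart under 3000 UMIs (2.65% in control, 14.2% in photon, 11.5% in proton) and overlap from 4000 UMIs on.

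Ltf and Lcn2 differed between low-depth and deeper marker-high cells more in the control than in the irradiated libraries. The summed G2 and M list differed more in photon than in control, and Krt14 went in opposite directions in control and photon. In the control, Ltf was at 205 CPM in the 281 marker-high cells under 4000 UMIs and at 668 CPM in the 298 cells at or above it. In photon the values were 507 and 519.5 CPM (974 and 388 cells), and in proton 287 and 319 CPM (663 and 241 cells). Lcn2 stood at 5121 and 9908 CPM in control, against 5218 and 5067 CPM in photon and 5233 and 5259 CPM in proton. Of the control marker-high cells under 4000 UMIs 22.4% held 2 or more of the 5 genes at 2000 UMIs, against 44.0% of the deeper ones; the photon shares were 45.0% and 49.7% and the proton shares 37.4% and 48.5%. Krt14 stood at 972 and 606 CPM in the control but at 756 and 1194 CPM in photon, and the summed G2 and M list at 74.4 and 154 CPM in the control and at 142 and 494 CPM in photon. Levels of Ltf set between control and irradiated marker-high cells therefore depended on which depths were compared: under 4000 UMIs Ltf was higher in photon (507 CPM) than in control (205 CPM), and at or above it Ltf was lower (519.5 against 668 CPM). The same holds for Lcn2, which was nearly level between the 3 libraries under 4000 UMIs and lower in both irradiated ones only at or above it.

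Depth and mitochondrial share differed between the libraries as follows. Marker-high cells totalled 2590154 (control), 4909602 (photon) and 3208797 UMIs (proton), so a count of 3 UMIs, the limit that a count of 0 allows, corresponds to 1.16, 0.611 and 0.935 CPM. Mitochondrial UMIs were 3.13%, 2.53% and 1.59% of the total in marker-high cells and 2.79%, 2.05% and 1.71% in other cells. Markers of cells outside the epithelium were at or near 0: the summed level of the immune list was 0, 0 and 10.6 CPM (in proton mainly 33 Lyz2 UMIs of 1 cell), of the fibroblast list at most 0.386 CPM, of the endothelial list 0, 1.02 and 3.43 CPM and of the erythroid list 0, 1.22 and 0 CPM. Between 18 and 28 barcode sequences were shared by each pair of libraries among pooled cells, and 1 (photon and control) among marker-high cells.

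Against the other cells, marker-high cells had more RNA of some luminal, junction and transport genes and less of many basal and matrix genes in all 3 libraries. Of 5063 genes with a mean of at least 25 CPM, 143 (2.82%) were at least 1.5-fold higher and 97 (1.92%) at least 1.5-fold lower in all 3 libraries, and at a mean of at least 5 CPM these were 314 (3.33%) and 273 (2.9%) of 9418. The cells were chosen on counts of the same cells, so these numbers describe the chosen range and are not a test. Among the luminal duct genes outside the rule, 6 of 14 measured were higher in all 3 libraries and none lower, with median log2 ratios of 0.76, 0.72 and 0.74 in control, photon and proton, against medians of -0.03, 0.01 and -0.03 over all genes. Lcn2 led them, at 8269, 5153 and 5244 CPM in marker-high cells against 2251, 1234 and 1262 CPM in other cells. Krt18 stood at 1915, 2461 and 1364 CPM against 860.3, 1198 and 704 CPM. Tspan8, a tetraspanin gene, stood at 32.4, 47.9 and 40.8 CPM against 4.68, 9.13 and 10.0 CPM. The other 3 were Cldn7, Elf3 (an epithelial transcription factor) and Spint1 (an inhibitor of serine proteases at the cell surface).

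Of the 12 basal duct genes, 7 were lower in all 3 libraries and none higher, with medians of -1.09, -1.04 and -1.06. Krt14 stood at 731, 945 and 321 CPM in marker-high cells against 1693, 2420.2 and 934 CPM in other cells. Trp63, which encodes p63, stood at 46.7, 42.4 and 50.2 CPM against 179, 107 and 153 CPM. Col17a1, a hemidesmosome collagen that ties basal cells to the basement membrane, stood at 40.9, 47.1 and 49.9 CPM against 130.1, 119 and 151 CPM. Krt5 differed less (907, 814 and 568 CPM against 1014, 1146 and 841 CPM), and Krt15 was higher in marker-high cells, at 1032, 944 and 309 CPM against 784, 706 and 239 CPM. At 2000 UMIs per cell a marker-high cell held a median of 23, 24 and 18 UMIs of the luminal list and 9, 6.5 and 4 of the basal list, against 11, 12 and 8 and 13, 14 and 8 in other cells. A Krt14 UMI was found in 47.3%, 49.3% and 33.3% of marker-high cells at that depth and in 82.4%, 86.1% and 67.6% of other cells.

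Part of the junction and transport genes leaned the same way as the luminal ones. Of 17 tight junction genes outside the rule, 7 were higher in all 3 libraries and none lower, among them Tjp3 (11.6, 11.6 and 17.1 CPM against 3.61, 2.66 and 3.80 CPM), a scaffold of the junction, and Marveld2 (27.4, 20.6 and 18.4 CPM against 7.52, 7.91 and 9.81 CPM), which encodes tricellulin. The summed junction list was near level in control (1527 against 1496 CPM) and proton (1883 against 1806 CPM). In photon it stood at 1413 against 1138 CPM. Of 15 ion and water transport genes, 7 were higher and none lower. Scnn1a, the alpha subunit of the epithelial sodium channel, stood at 71.0, 48.9 and 56.4 CPM against 34.4, 13.2 and 19.3 CPM, and Tmprss2, a membrane serine protease, at 67.2, 64.4 and 92.9 CPM against 28.2, 16.7 and 25.7 CPM. Cftr, the apical chloride channel, was low in both sets, at 8.88, 13.6 and 13.4 CPM against 3.33, 3.83 and 5.74 CPM. The ionocyte genes Cftr and Atp6v0d2 were the 2 of that list measured and both were higher, with Atp6v0d2 in the marker-high cells at 13.5, 26.9 and 27.4 CPM. In the acute phase list 2 of 11 genes were higher and none lower: Lcn2 and Lbp, the lipopolysaccharide-binding protein gene (607, 445 and 445 CPM against 298, 115 and 131 CPM). The chemokine genes Cxcl1 and Cxcl5, which draw neutrophils, were 2 of 7 measured and both were higher. Cxcl5 stood at 163, 179.6 and 196 CPM against 81.0, 67.5 and 56.9 CPM. In the list of p53 targets 1 of 22 was higher, Cdkn1a, the gene of the cell cycle inhibitor p21 (309.6, 493 and 335 CPM against 159, 291 and 175 CPM).

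Cell division genes were lower in marker-high than in other cells of the irradiated libraries, and in the control mainly among deeper cells. Of 11 G2 and M phase genes, 7 were lower in all 3 libraries, with medians of -0.93, -1.71 and -1.68. Mki67 stood at 5.79, 10.8 and 11.8 CPM against 11.6, 44.9 and 55.4 CPM, and Top2a at 6.18, 20.4 and 15.3 CPM against 14.8, 71.6 and 71.7 CPM. In control cells under 4000 UMIs the summed list was at 74.4 CPM in marker-high and 75.8 CPM in other cells, and in deeper ones at 154 and 385 CPM. At 2000 UMIs per cell 14.9% of control marker-high cells and 13.0% of other control cells held a UMI of the list, against 19.2% and 35.2% in photon and 15.0% and 30.3% in proton. Of 17 migration and matrix genes 7 were lower and 1 higher (Mmp7), and of 11 squamous genes 3 were lower and none higher in all 3. Squamous members went in both directions: Krtdap, a gene of keratinocyte differentiation, stood at 13.1, 47.3 and 40.2 CPM against 41.1, 215 and 317 CPM, while Sprr1a, a cornified envelope gene, stood at 3227, 3083 and 3012 CPM against 2354, 1144 and 1032 CPM. The summed squamous list was higher in marker-high cells (3784, 3648 and 3324 CPM against 2828, 1893 and 1781 CPM). So was the summed acinar list (334, 271 and 421 CPM against 154, 170 and 278 CPM), with 1 of 3 measured genes higher in all 3 libraries. Granular tubule genes were scarce but also summed higher (12.4, 14.7 and 17.5 CPM against 5.96, 7.57 and 9.81 CPM).

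Outside the lists, the genes with the largest ratio in the library where it was smallest included enzymes, secreted proteins and membrane proteins. Arg1, which encodes the arginine-degrading enzyme arginase 1, stood at 165, 77.4 and 65.1 CPM in marker-high cells against 19.1, 12.7 and 10.7 CPM in other cells, or 8.64-, 6.08- and 6.07-fold. Pdzk1ip1 stood at 112, 49.5 and 61.1 CPM against 20.4, 8.35 and 9.34 CPM. Mal, a gene of apical membrane traffic, stood at 149, 164 and 133 CPM against 28.4, 37.9 and 26.8 CPM. Clu, the gene of the secreted chaperone clusterin, stood at 484, 664 and 671 CPM against 121, 123 and 164 CPM, and Crisp1 at 71.0, 135 and 166 CPM against 9.54, 34.6 and 42.6 CPM. The other 7 were Serpinb11, Mlph, Lcn2, Chst9, Dclk1, Chchd10 and Tspan1. At the low end, Sostdc1, a secreted antagonist of BMP and Wnt signals, stood at 33.2, 67.0 and 23.7 CPM against 138, 299.8 and 93.8 CPM. Sparc, a matrix protein gene, stood at 22.4, 24.6 and 20.6 CPM against 114, 115 and 59.8 CPM, and Col8a1 at 18.1, 31.2 and 52.4 CPM against 72.4, 149.6 and 220.4 CPM. The others were Wnt10a, Cdh13, Krtdap, Frmd4b, Lmo1, Tnc, Jag2, Apoe and Stard13.

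The summed luminal list went up with the marker share, most steeply at its top end. Over 10 deciles of the pooled cells by marker share, the summed luminal list in control went from 5509 CPM in the lowest decile to 6041 in the fifth, 9294 in the ninth and 15394 in the highest. In photon the same deciles held 4740.3, 6889, 9650.1 and 13819.5 CPM and in proton 3547, 4981, 7598 and 11023 CPM. Much of this sum was 1 gene, Lcn2. Between the lowest and the highest decile Lcn2 went from 1993 to 8269 CPM in control, from 760 to 5153 CPM in photon and from 697 to 5244 CPM in proton. The basal list in control lay between 6741 and 6986 CPM over the lowest 8 deciles, at 6588 CPM in the ninth and at 4934 CPM in the highest. In photon it went from 9614 to 4379 CPM and in proton from 5251 to 2447 CPM between the lowest and the highest decile, with the largest photon step between the lowest decile and the next (9614 to 7941 CPM). G2 and M genes were highest at the low end in the irradiated libraries, at 1098 CPM in photon and 836 CPM in proton in the lowest decile against 294 and 198 CPM in the highest, while control values were 187 and 127 CPM. Across the 30 points (10 deciles in 3 libraries) the genes outside the rule whose level was most alike the marker share were Serpinb6b (r = 0.948), Mal (0.946), Mettl26 (0.940), Prdx6 (0.938), Srd5a1 (0.936) and Plscr1 (0.926). These are descriptions over points that share libraries and, by construction, the same cells' totals.

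**Figure D4:**
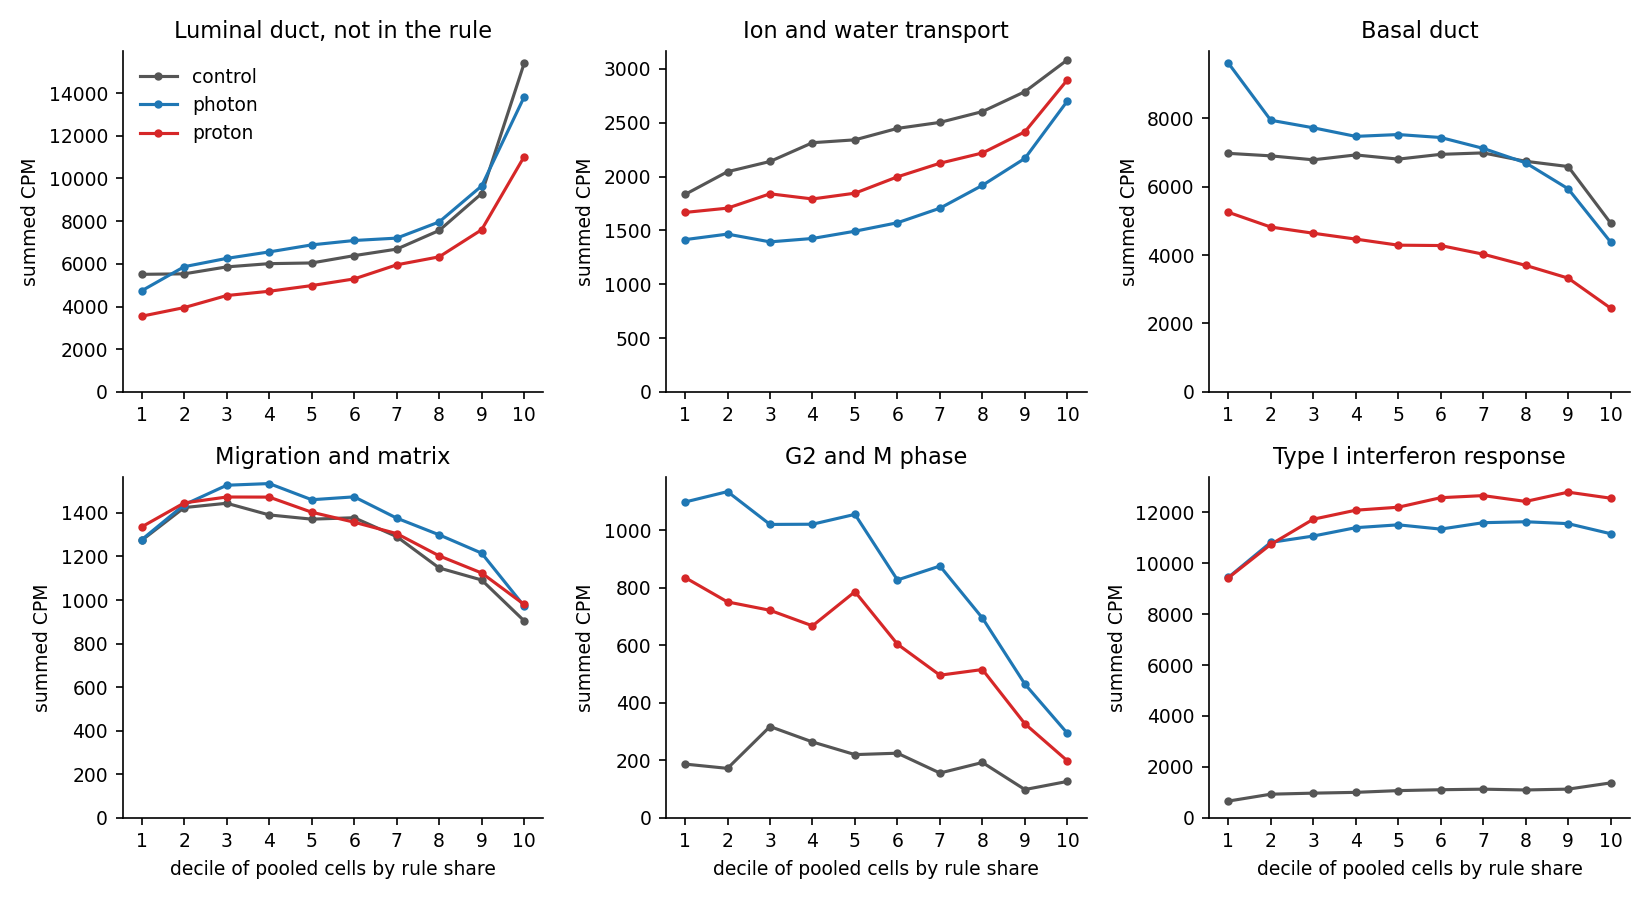
Summed levels (CPM, linear axis from 0) of gene lists in 10 deciles of the pooled cells ordered by the share of UMIs from the 6 genes, 1 line per library; the decile at the right holds the marker-high cells. The luminal list is highest there (15394 CPM in control, of which Lcn2 held 8269 CPM) and the basal list lowest (4934 CPM in control).

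Among marker-high cells, nearly all measured interferon-responsive genes and most antigen presentation genes were higher in the photon library than in the control. Type I interferon signals through STAT factors to genes that carry the interferon response element shown above. Of 5725 genes with a mean of at least 25 CPM, photon was at least 1.5-fold above the control in 183 (3.2%) and as far below it in 198 (3.46%), and at a mean of at least 5 CPM these were 544 (5.51%) and 650 (6.58%) of 9872, so most genes that differed lay outside these lists. Scaled by the median of gene ratios, the counts at 25 CPM were 219 higher and 121 lower. The interferon list had 37 of 38 measured genes above the threshold and 1 below it, at a median log2 ratio of 3.18 against -0.07 over all genes. Measured meant a mean of at least 5 CPM over the 2 libraries, so genes near 0 in the control could enter only through photon. Over marker-high and other cells, 23 of the 38 had a mean of at least 5 CPM in each of the 3 libraries. The whole list summed to 1372, 11156 and 12551 CPM in control, photon and proton marker-high cells. Isg15, a ubiquitin-like protein that is joined to other proteins, reached 66.4, 1209 and 764 CPM in the marker-high cells of control, photon and proton. The photon to control ratio was 18.2 (15.6 to 21.3). Ifit1, which binds foreign RNA, stood at 13.1, 188 and 173 CPM (photon ratio 14.3, 10.2 to 20.8). Ifit3 stood at 3.09, 444 and 237 CPM from only 8 control UMIs (photon ratio 144, 72.8 to 333), and its reads may be split with the close copy Ifit3b. Ccl5, a T cell-attracting chemokine gene, had 1 UMI in the control and reached 177 CPM (photon) and 245 CPM (proton), so its photon ratio of 459 has an interval from 82.2 upward to 18149.5. It was found in few cells, 72 of 1362 in photon and 63 of 904 in proton. The gene that was lower was Ifi27, at 228, 30.6 and 25.9 CPM (photon ratio 0.134, 0.111 to 0.161), while its relative Ifi27l2a stood at 271, 3862 and 6247 CPM.

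MHC class I genes, which present peptides to T cells, stood higher as well. In that list 15 of 19 measured genes were higher in photon and none lower (median log2 ratio 1.91). B2m, the shared light chain, stood at 276, 1909 and 1551 CPM (photon ratio 6.92, 6.41 to 7.47) and the heavy chain gene H2-K1 at 446, 1803 and 875 CPM. H2-Q6 and H2-Q7 are near copies whose reads cannot be assigned with certainty. Interferon and MHC genes were also higher in the other cells, whose medians were 3.74 and 2.14. At 2000 UMIs per cell 8.81% of control, 78.0% of photon and 65.6% of proton marker-high cells held an Isg15 UMI, against 7.68%, 81.9% and 63.7% of other cells.

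In most other lists a smaller share of members differed between photon and control, apart from the G2 and M list given below. Of 16 migration and matrix genes 7 were higher and none lower (median 0.29, other cells 0.20), with a summed ratio of 1.07. In the acute phase list 4 of 11 genes were lower and none higher: Orm1 (202, 63.5 and 55.5 CPM), Orm3 (109.6, 27.5 and 26.8 CPM), Cebpb and Lcn2. Orm1 and Orm3 are close copies that encode orosomucoid. The Lcn2 difference lay in cells of 4000 UMIs or more (9908 CPM in control, 5067 CPM in photon). Under that depth Lcn2 stood at 5121 and 5218 CPM. Of 23 p53 targets 5 were higher and none lower (Gdf15, Eda2r, Tnfrsf10b, Ccng1 and Cdkn1a), with a median of 0.27 in marker-high and 0.23 in other cells. The p53 median was 0.05 in marker-high cells chosen among cells of at least 5000 UMIs. Cdkn1a went from 309.6 CPM in the control to 493 CPM in photon (ratio 1.59, 1.47 to 1.73). Among 15 transport genes 4 were higher (Slc12a2, Kcnma1, Slc4a2 and Cftr) and the water channel genes Aqp5 and Aqp3 were lower. Slc12a2, the sodium, potassium and chloride cotransporter, stood at 71.4, 141 and 228 CPM. The luminal list had 2 genes higher (Krt19 and Krt8) and 2 lower (Prom1 and Lcn2) of 15, with a median of 0.03, and the basal list none in either direction of 12. Outside the lists, Cbr2, a carbonyl reductase gene, stood at 703, 253 and 242 CPM (photon ratio 0.360, 0.334 to 0.387). The lowest ratios, of Dcpp1 and Dcpp3, each rested on 1 control cell, which held 147 and 174 UMIs, all of the control count.

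Of the rule genes, Cst6 differed most between libraries within the marker-high cells. The photon to control ratio of Cst6 was 2.86 (2.52 to 3.24) and the proton to control ratio 4.24 (3.75 to 4.82), and in the other cells they were 3.57 and 4.17. Hp was at ratios of 0.812 in photon and 0.489 in proton, and in the other cells at 1.04 and 0.629. The photon direction for Hp depended on depth. Under 4000 UMIs marker-high cells held 259 CPM in control and 356 CPM in photon, and at or above it 484 and 297 CPM. Proton values were below the control at both depths (171 and 238 CPM). Ltf was at a ratio of 1.01 (0.940 to 1.08) in photon and 0.589 (0.541 to 0.640) in proton, while in the other cells it was 1.89 and 1.78. Since these genes took part in the choice, the values are descriptions.

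Proton marker-high cells shared the interferon and MHC pattern with photon ones, and both were set against the same control library. Of 5812 genes with a mean of at least 25 CPM proton was at least 1.5-fold above the control in 898 (15.5%) and as far below it in 1020 (17.5%), and at a mean of at least 5 CPM 1838 (18.3%) and 1801 (18%) of 10018. The interferon list had 37 of 38 genes above the threshold and 1 below (median 2.99), and the MHC class I list 13 of 19 above and none below (median 1.42). Here too, genes near 0 in the control could enter only through the irradiated library. Immediate early and heat shock genes, whose transcripts are made and lost within minutes to hours of a stimulus, were lower in 13 of 20 and higher in none (median -0.71, and -0.91 in other cells). Jun reached 761, 659 and 153 CPM in the same order of libraries (proton ratio 0.201, 0.182 to 0.222). Fos stood at 254, 355 and 91.9 CPM, and Dusp1 at 40.2, 56.8 and 10.3 CPM. Photon and control values lay within 1.5-fold of each other for Jun, Fos and Dusp1, and the proton values lay below both.

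Several basal keratin genes and the water channel genes Aqp3 and Aqp5 were also lower in proton marker-high cells. Luminal keratin genes went in both directions, within 1.5-fold. Krt8 was at 425 CPM in the control and 545 CPM in proton and Krt19 at 61.8 and 83.2 CPM. Krt18 was at 1592 and 1258 CPM under 4000 UMIs and at 2083 and 1515 CPM at or above it. The summed luminal list stood at 0.716 times the control. Of the 12 basal duct genes 5 were lower (Krt15, Krt17, Krt14, Krt5 and Lamb3) and 1 higher (Itgb4). Krt15 stood at 1032, 944 and 309 CPM (proton ratio 0.300, 0.278 to 0.323) and Krt14 at 731, 945 and 321 CPM (0.439, 0.407 to 0.474). Of 15 luminal genes 5 were lower and none higher: Epcam (1639.7, 1582 and 977 CPM), Elf3, Prom1, Lcn2 and Cldn7. Of 10 squamous genes 6 were lower and 1 higher (Krtdap). Of 15 transport genes 3 were lower (Aqp3 at a ratio of 0.161, Aqp5 at 0.387 and Atp1b1 at 0.464) and 6 higher, led by Kcnma1 at 3.32 and Slc12a2 at 3.19. The chemokine genes Ccl20, Cxcl2, Cxcl1, Cxcl3 and Ppbp were lower and Ccl5 and Cxcl10 higher, of 10 measured. The chemokine median was -0.79, and -0.07 in marker-high cells chosen among cells of at least 5000 UMIs. Acute phase genes divided, with C3 (ratio 2.24), Serpina3n (2.71) and Il6ra (1.65) higher and 5 lower, among them Lcn2 (0.634, 0.621 to 0.647). The Lcn2 difference lay in cells of 4000 UMIs or more (9908 CPM in control, 5259 CPM in proton). Under that depth Lcn2 stood at 5121 and 5233 CPM. Cirbp, a cold-inducible RNA-binding protein gene, stood at 260.2, 166 and 54.8 CPM. Psca stood at 139, 94.7 and 9.66 CPM but was found in 15, 15 and 5 cells, and 1 cell held 51.7% of its UMIs in control and 48.2% in photon.

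Summed over their list, G2 and M phase genes were higher in both irradiated libraries within the marker-high cells, with smaller ratios to control than in the other cells. S phase genes were higher mainly in photon. Over all genes with a mean of at least 5 CPM in the other cells, photon was at least 1.5-fold above the control in 8.2% and as far below it in 10.9%, and proton in 16.2% and 15.2%. Of 13 G2 and M genes measured 10 were higher in photon and none lower (median 1.51), and in the other cells 24 of 24 (median 2.34). In proton 7 of 11 were higher and none lower (median 1.03), and in the other cells 21 of 22 (median 1.90). Genes near 0 in the control could enter these counts only through the irradiated library. The medians of marker-high and other cells cover unlike members, so they cannot be set against each other directly. Summed over the list, marker-high cells held 127, 294 and 198 CPM, in the order of the libraries above, against 205, 905 and 654 CPM in the other cells. The summed ratios to control were 2.32 (photon) and 1.57 (proton), against 4.42 and 3.20 in the other cells. The size of the difference to control moved with depth: in marker-high cells chosen among cells of at least 5000 UMIs the medians were 2.77 in photon and 1.93 in proton. S phase genes were higher in 7 of 18 in photon (median 0.40, other cells 1.34). In proton 5 of 17 were higher and 3 lower (median 0.07, other cells 0.96), shares near the 18.3% and 18% of all genes, and the summed level was 315 CPM in the control and 301 CPM in proton. Cholesterol synthesis genes had a median of 0.15 in photon and -0.28 in proton marker-high cells (0.08 in proton at 5000 UMIs or more), against 0.96 and 0.41 in the other cells. Glucocorticoid response genes, a list taken because the medium held dexamethasone, were lower in 2 of 11 in photon and 5 of 11 in proton and higher in none, with medians of -0.27 and -0.58 against -0.80 and -1.25 in the other cells.

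**Figure D5:**
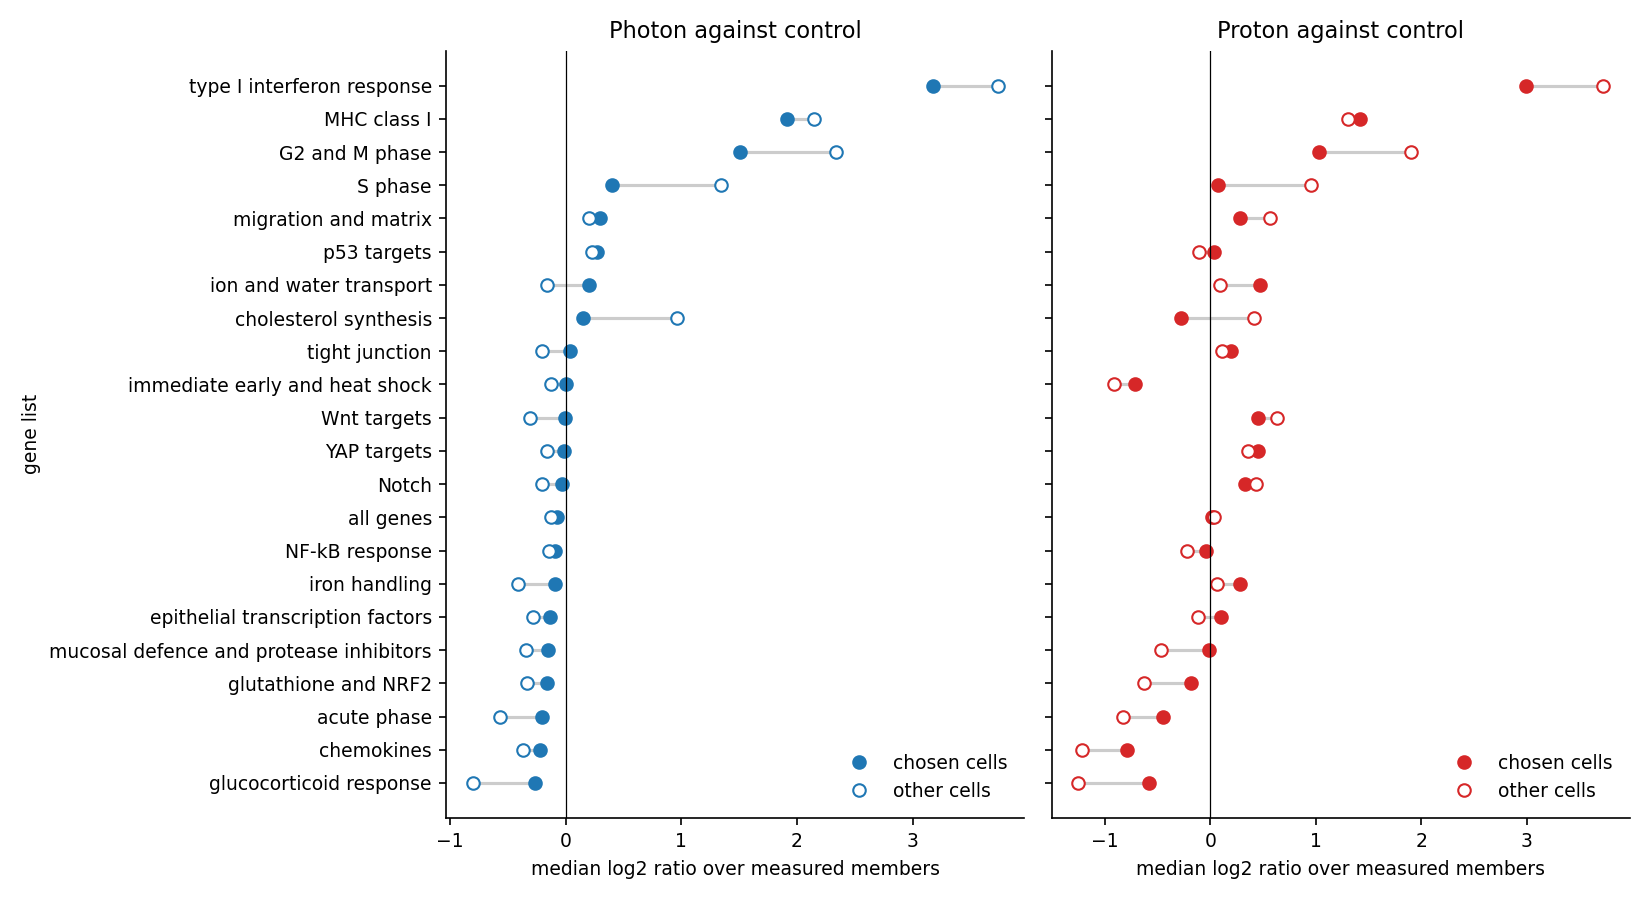
Median log2 ratio to control over the measured members of each gene list in marker-high cells and in other cells, photon at the left and proton at the right. The interferon list lies at 3.18 and 2.99 in marker-high cells and at 3.74 and 3.73 in other cells, and the G2 and M list at 1.51 and 1.03 against 2.34 and 1.90. The G2 and M medians cover 13 and 11 genes in marker-high cells and 24 and 22 in other cells.

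Set directly against each other, proton and photon marker-high cells differed in more genes than photon and control ones. Of 5688 genes with a mean of at least 25 CPM, proton was at least 1.5-fold above photon in 953 (16.8%) and as far below it in 788 (13.9%), against 24% and 16.6% in the other cells. Scaled by the median of gene ratios, the counts were 786 above and 911 below, so the balance of directions turned with the scaling. At a mean of at least 5 CPM 18.2% of 9973 genes were higher and 13.7% lower. Gm42418 and AY036118, which overlap ribosomal RNA sequence, were among the highest: Gm42418 stood at 2586 CPM in photon and 9239.9 CPM in proton marker-high cells, a ratio of 3.57 (3.50 to 3.65), and its ratio in other cells was 3.40. Of the immediate early genes 11 of 20 were lower in proton and none higher (median -0.68). In the interferon list 4 of 38 were higher and 7 lower (median -0.09), shares not far from those of all genes. By gene, Ifi27l2a was at a ratio of 1.62 (1.59 to 1.65), Ifit3 at 0.534 (0.491 to 0.580) and Isg15 at 0.631 (0.602 to 0.662). The MHC class I genes H2-K1, H2-D1 and H2-Q4 were lower, at ratios of 0.485, 0.553 and 0.510. Fabp4, a fatty acid carrier gene, reached 19.7, 97.6 and 25.6 CPM in marker-high cells (control, photon, proton), and 9.81, 109.6 and 124 CPM in the other cells.

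Fewer genes passed 1.5-fold between photon and control in the marker-high than in the other cells, where 6.55% were higher and 9.6% lower of 5709 genes. Between proton and control the shares in other cells were 12.4% and 16% of 5825 genes, below those in the marker-high cells. The other cells held 25268052 to 36053082 UMIs per library, against 2590154 to 4909602 in the marker-high cells. The differences of the log2 ratio between marker-high and other cells have intervals from counting error only. Errfi1, a feedback inhibitor of the EGF receptor, was among the 8 genes with the highest difference in both irradiated libraries, and reached 373, 314 and 248 CPM in marker-high cells of the 3 libraries against 508, 172 and 139 CPM in other cells. Its photon to control log2 ratio was larger in the marker-high cells by 1.32 (1.19 to 1.44) and its proton to control log2 ratio by 1.29 (1.14 to 1.43). Irs2, an adaptor of insulin signalling, stood at 55.2, 74.1 and 54.2 CPM against 70.0, 36.5 and 35.8 CPM (photon difference 1.36, 1.07 to 1.66). Slc39a14, a zinc and iron importer gene, stood at 31.3, 45.0 and 60.5 CPM against 43.8, 24.6 and 48.9 CPM (photon difference 1.36, 0.97 to 1.74). In these 3 genes the other cells were lower in photon than in control, while the marker-high cells were within 1.5-fold.

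On the opposite side, Cenpm, a centromere protein gene, stood at 89.6, 64.8 and 51.7 CPM in marker-high cells and at 20.8, 50.1 and 47.8 CPM in other cells, and its proton difference was -1.99 (-2.31 to -1.67). Fabp5, another fatty acid carrier gene, stood at 2623, 3379.5 and 1805 CPM against 1734, 3985 and 2912 CPM (proton difference -1.29, -1.34 to -1.23). Krt6a, a stress keratin gene, stood at 224, 201 and 93.8 CPM against 101, 159 and 119.8 CPM (proton difference -1.50, -1.71 to -1.29). The Fabp4 difference in proton was -3.29 (-3.82 to -2.75), and 25 of its 51 control UMIs came from 1 cell. The Ccn1 difference in proton was 2.12 (1.84 to 2.39), but 143 of 228 proton UMIs came from 1 cell, without which Ccn1 went from 71.1 to 26.5 CPM. Rsad2, an antiviral enzyme gene, had a photon difference of -3.25 (-4.61 to -1.90), with 7 control UMIs in the marker-high cells behind it.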

How the data were processed

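Single-cell RNA was measured in 3 libraries. The authors deposited filtered matrices of raw counts (UMIs per gene and cell), made with Cell Ranger 7.0.1 on mm10 per the submitters' processing notes and with 7.0.0 per the file headers. Its annotation release and treatment of intronic reads were not given in the sources used here. From the counts, UMIs were summed over cells per library and cell set and divided by the summed total (CPM). Ratios were taken where the mean CPM was at least 25 for all genes and at least 5 for list members, a 1.5-fold ratio was the threshold, and a count of 0 was set to the limit of 3 UMIs. Intervals were exact conditional binomial for CPM ratios, log-normal for share ratios and Clopper-Pearson for shares, at 95%. Shares of cells holding a gene were taken after thinning each cell to 2000 UMIs (seed 11). The ratio step was tested on simulated data. No doublet caller was run and no doublets were removed. Gene IDs were placed with GENCODE release 21 (32158 of 32285 matched) and promoters come from RefSeq. Python 3.11.15, numpy 2.4.6, scipy 1.17.1 and pandas 2.3.3 were used.

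Named genes were the 6 rule genes, the 12 highest and 12 lowest ratios of each comparison, the 8 highest and 8 lowest differences between cell sets, up to 4 of the most abundant members of each of 21 gene lists and 12 marker lists with the member of largest ratio, and the 6 genes most alike the marker share. Members of the interferon, MHC, p53, transport, keratin and other lists that are named beside a count but fall outside this rule were chosen after their values were seen. The cells, the marker genes and the lists were chosen with earlier results of these data known. Alternatives covered depth, the size of the cut, the rule genes, the scaling and the CPM minimum.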

Additional observations from a re-analysis of the deposited data

Results flagged for a closer look

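Barcodes under 2000 UMIs were used only in the alternative with pooled cells of at least 1000 UMIs, where the share ratios to control were 2.19 (photon) and 1.95 (proton). Those past the same cut were more frequent in both irradiated libraries than in the control. The barcodes counted here and the pooled ones do not make up all deposited barcodes (15926 in photon, 14525 in proton, 14266 in control), and the rest is not described. Of 4150 photon barcodes counted under that depth 316 lay past the cut (7.61%, 6.83 to 8.46), and of 6017 proton barcodes 483 did (8.03%, 7.35 to 8.74). In the control 24 of 3599 did (0.667%, 0.428 to 0.991). These barcodes had median depths of 1033 (control), 1502.5 (photon) and 1378 UMIs (proton), and the part of depth in the difference was not tested.

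Cenpm had opposite proton to control log2 ratios in marker-high cells (-0.79) and in the other cells (1.20); 1 control cell held 43 of its 232 UMIs, and without the top cell of each library the marker-high value was -0.57. Usp38 had a log2 ratio to control of 0.63 in proton marker-high cells and -0.71 in photon ones. Dut, a nucleotide metabolism enzyme gene, had a log2 ratio of -0.70 in proton marker-high cells and 0.67 in photon ones. With 1 library per group, neither opposite direction was tested.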

How the results depend on the processing

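The share ratios of 2.08 (photon to control) and 1.89 (proton to control) depended on depth and on the genes of the rule. Among cells of at least 5000 UMIs, ranked anew, they reversed to 0.866 and 0.935. Without Wfdc2 and Cst6 they were 1.36 and, reversed, 0.983. With the highest 5% chosen they were 2.88 and 2.59, and with the highest 20% 1.46 and 1.28. The proton ratio was 1.69 when cells were chosen on counts thinned to 2000 UMIs and 1.59 by the 5 genes without Wfdc2, a choice made after seeing the data, as were Wfdc2 alone and leaving out each gene's top cell. The counts of genes past 1.5-fold in photon over control (183 higher, 198 lower) became 303 and 571 at 5000 UMIs or more, 348 and 404 at a mean of at least 10 CPM, and 2425 and 4344 with no minimum beyond 1 UMI. Those lower became 121 when libraries were scaled by the median of gene ratios. Genes higher in proton than control (898) became 1402 at 10 CPM; with no minimum the higher and lower counts were 4045 and 4572. Genes higher in proton than photon (953) became 1454 at 10 CPM, and with no minimum the counts were 5588 and 3432. The other 95 of 118 values of these 8 results stayed within 1.5 times of the reported count or within the reported interval of the share ratio. Of 146 list medians, 37 changed sign under at least 1 of 14 settings, the largest of them at 0.466 in size. Of 144 ratios of named genes 2 changed sign under 15 settings, Dcpp1 and Dcpp3 in proton, to 2.13 and 3.29 without Wfdc2 and Cst6 and to 1.15 and 2.30 without the 5% deepest cells; each rested on 1 control cell. The cause of the other changes was not tested. No paired analysis was possible because each group is 1 library. A count of 0 in the control marker-high cells allows up to 1.16 CPM.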
